A study of Mus musculus with 6 samples.

Results

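Transcripts of the insulin-like growth factor (IGF) system were followed in the femur of mice that ran voluntarily on a wheel, against sedentary mice. All animals were male, wild-type and of the C57BL/6 strain. The 10 genes were chosen by symbol and comprise the ligands Igf1 and Igf2, the receptor Igf1r, the binding proteins Igfbp2, Igfbp3, Igfbp4, Igfbp5, Igfbp6 and Igfbp7, and the acid labile subunit Igfals, out of 55484 genes in the deposited tables. The 3 wheel running mice (ND/WCR, treatment code NW) lived singly with free access to a running wheel and the 3 sedentary mice (ND/SED, treatment code NS) lived singly without one. Both groups ate normal chow, entered the cages at 6 weeks of age, stayed 6 weeks and were 12 weeks old at collection. Polyadenylated RNA of the femur was sequenced, and the study's title places the comparison in the response of osteocytes to mechanical load. The labels do not tell how marrow, muscle and periosteum were removed. Markers of bone were present, with Dmp1 of osteocytes at 169 FPKM in wheel running and 145 FPKM in sedentary mice, and so were those of marrow, with neutrophil genes summing to 43347 and 51126 FPKM. In such bulk RNA, fewer cells of a type and less RNA per cell cannot be told apart.

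IGF-1 and IGF-2 are secreted growth factors that signal through the receptor tyrosine kinase IGF1R to the PI3K and AKT kinases. In tissue fluid and blood most IGF is held by binding proteins, which prolong its life and limit or present it to the receptor, and proteases that cleave the binding proteins set the ligand free. Bone is rich in both ligands and binding proteins. Osteoblasts make IGF-1 locally, and IGF signalling is known to promote bone formation and to take part in the response of bone to load.

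The tables hold 1 pooled FPKM per gene and group (fragments per kilobase and scaled for depth, so a level per transcript length) and the bounds of the authors' interval around it. No spread between mice can therefore be given, and p-values and q-values (p adjusted over all tested genes) are those of the authors' deposited table, in which a gene with q under 0.05 is taken here as called. Log2 folds are wheel running over sedentary, computed from log2(FPKM + 0.1). The authors tested 9 of the 10 genes, and Igfals carries their status NOTEST. Estimated effective depths were 13800000 to 17400000 fragments per library in wheel running and 14300000 to 16400000 in sedentary mice.

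Igfbp3 and Igfbp6 rose in the wheel running mice, and no other gene of the set was called. Igfbp6 stood at 15.1 FPKM in wheel running mice and 9.13 FPKM in sedentary mice, 1.65-fold higher. Igfbp3 stood at 19.3 FPKM in wheel running mice and 13.6 FPKM in sedentary mice, 1.43-fold higher. Of the 9 tested genes, 2 were called higher and 0 lower, where the authors' deposited table called 0.941% of all 15508 tested genes, 0.445% higher and 0.497% lower. The 9 tested genes had a median log2 fold of 0.18, with 6 positive and 3 negative, beside a median of -0.0067 and 48.2% positive among all tested genes. These genes were picked with the result known, so the count describes them and is no test of the set.

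The promoters of the 2 called genes are shown, and with them those of the neighbours Igfbp5 and Igfbp2. Igfbp5 and Igfbp2 had folds of opposite sign and were not called. Each window runs 250 bases before to 50 after the RefSeq start on GRCm38.p6, written 5′ to 3′ on the gene's strand. Capitals mark matches on either strand to TATAAA (the core of the TATA box), GGGCGG (GC box), CATTCC (core of the TEAD motif), CCAAT (the box of that name), AGAACA (half-site of the glucocorticoid receptor), CACGTG (E-box) or TATATA, the last of which was added after the sequences were read. The windows are chr11:7213874-7214173 on the minus strand for Igfbp3, chr15:102143936-102144235 on the plus strand for Igfbp6, chr1:72874816-72875115 on the minus strand for Igfbp5 and chr1:72824230-72824529 on the plus strand for Igfbp2.
Igfbp3: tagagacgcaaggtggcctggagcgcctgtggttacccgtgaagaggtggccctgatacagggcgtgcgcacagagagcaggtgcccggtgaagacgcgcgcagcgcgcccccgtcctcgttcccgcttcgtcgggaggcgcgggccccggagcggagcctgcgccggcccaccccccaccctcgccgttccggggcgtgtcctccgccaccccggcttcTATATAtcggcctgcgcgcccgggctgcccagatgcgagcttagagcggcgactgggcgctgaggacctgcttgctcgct
Igfbp6: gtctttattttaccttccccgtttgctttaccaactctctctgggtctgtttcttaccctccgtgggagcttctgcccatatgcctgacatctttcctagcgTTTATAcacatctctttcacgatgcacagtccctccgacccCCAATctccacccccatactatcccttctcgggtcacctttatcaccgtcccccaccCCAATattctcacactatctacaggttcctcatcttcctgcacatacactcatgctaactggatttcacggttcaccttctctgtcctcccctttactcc
Igfbp5: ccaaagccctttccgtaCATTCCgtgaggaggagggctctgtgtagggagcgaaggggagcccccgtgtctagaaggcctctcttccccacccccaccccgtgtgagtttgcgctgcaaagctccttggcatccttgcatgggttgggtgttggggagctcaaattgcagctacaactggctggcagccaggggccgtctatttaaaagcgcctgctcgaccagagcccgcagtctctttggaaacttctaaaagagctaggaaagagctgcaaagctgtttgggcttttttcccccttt
Igfbp2: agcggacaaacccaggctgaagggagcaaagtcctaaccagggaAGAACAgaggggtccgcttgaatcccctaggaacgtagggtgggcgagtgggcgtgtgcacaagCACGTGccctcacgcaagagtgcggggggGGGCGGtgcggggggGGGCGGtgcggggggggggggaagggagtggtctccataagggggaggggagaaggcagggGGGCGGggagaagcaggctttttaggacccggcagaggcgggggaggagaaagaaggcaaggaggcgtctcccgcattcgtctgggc

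The promoters of both called genes are unlike in base composition. The Igfbp3 window is 71.7% G or C with 37 CpG pairs, and the Igfbp6 window is 49.7% G or C with 8 CpG pairs, where the median of 32851 windows is 52.7% and 7 pairs. Igfbp3 holds TATATA at position -30 from its start, a match present in 5.67% of all windows, and none of the other motifs. Igfbp6 holds TATAAA on the reverse strand at -148 (13.6% of all windows have a match) and CCAAT at -107 and -50 (37.4%), and its window ends before the first base of the GENCODE gene, which lies 176 bases beyond the RefSeq start. CATTCC, the TEAD core, occurs in 14.7% of all windows. Of the 10 genes, Igfbp5 (at -233), Igf2 and Igfals have a match, and neither called gene does. The printed Igfbp2 window holds GGGCGG at -113, -98 and -37 (35.7% of all windows have a match), AGAACA at -206 (19%) and CACGTG at -142 (7.15%). Another Igfbp2 window, 72825137 to 72825436, is not shown and holds none of the motifs. These are letter matches only. RefSeq windows were found for all 10 genes, 16 in all, since Igf2, Igfals and Igfbp2 have several starts.

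Igf1 and Igf2, the ligands, were not called. Igf1 (chromosome 10, 87858265 to 87937042, plus strand) had 19.03 FPKM (interval 10.5 to 27.6) in wheel running mice and 16.8 FPKM (8.91 to 24.6) in sedentary mice, a log2 fold of 0.18 with p = 0.498 and q = 0.9997 in the authors' deposited table. Igf2 (chromosome 7, 142650766 to 142666816, minus strand) had 3.55 FPKM (1.71 to 5.39) in wheel running mice and 3.66 FPKM (1.78 to 5.54) in sedentary mice, a log2 fold of -0.04 with p = 0.869 in the authors' deposited table. The groups' intervals covered nearly the same range for either ligand, and they were wide, with a half-width of 45.0% of the value in wheel running and 46.9% in sedentary mice for Igf1, against a median half-width of 26.1% and 26.3% among tested genes of at least 10 FPKM. Igf1 was the more abundant ligand per transcript length, 5.36 times the FPKM of Igf2 in wheel running and 4.58 times in sedentary mice. Antisense genes overlap both ligand genes but were barely detected, Igf1os at 0.156 and 0.193 FPKM and Igf2os at 0.0213 and 0.00507 FPKM in wheel running and sedentary mice. The protein-coding gene Gm49394 also overlaps Igf2, by 16048 bp on the same strand, and was listed at 0 in both groups. How fragments were shared between Igf2 and Gm49394 was not tested.

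Igf1r, the receptor that carries the signal of either ligand, was not called. Igf1r (chromosome 7, 67952827 to 68233668, plus strand) had 12.2 FPKM (8.93 to 15.4) in wheel running mice and 13.0 FPKM (8.73 to 17.2) in sedentary mice. Its log2 fold was -0.09, with p = 0.549 in the authors' deposited table. The interval of the wheel running group lay wholly inside that of the sedentary group. A long transcript put about 6500 fragments behind the value in each group, the third highest number among the 10 genes.

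Igfbp3 encodes the main IGF carrier of blood, which binds IGF together with the acid labile subunit, and is also listed among target genes of the YAP and TAZ coactivators. The gene (chromosome 11, 7206086 to 7213923, minus strand; 5 exons in its principal transcript) had 19.3 FPKM (15.3 to 23.4) in wheel running mice and 13.6 FPKM (10.5 to 16.6) in sedentary mice. The log2 fold of 0.51 exceeded that of 96.2% of tested genes. In the authors' deposited table p was 5e-05 and q was 0.00718, the smallest values in it, with a test statistic of 2.31. The lower bound in wheel running mice was nevertheless 1.34 FPKM below the upper bound in sedentary mice, so the intervals overlapped. About 2000 fragments in wheel running and 1300 in sedentary mice lay behind these values.

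Igfbp6 encodes a binding protein with a marked preference for IGF-2. The gene (chromosome 15, 102144362 to 102149511, plus strand; 4 exons and 1 annotated transcript) had 15.1 FPKM (11.1 to 19.1) in wheel running mice and 9.13 FPKM (6.23 to 12.0) in sedentary mice. Its log2 fold of 0.72 was the highest among the tested genes of the system and exceeded that of 98.2% of all tested genes. In the authors' deposited table p was 5e-05, q was 0.00718 and the test statistic was 2.43. The intervals overlapped by 0.935 FPKM. About 620 fragments in wheel running and 350 in sedentary mice lay behind the values, fewer than for Igfbp3. Soat2, which starts 1015 bp downstream on the same strand, was not called and stood at 1.27 FPKM in wheel running and 1.74 FPKM in sedentary mice.

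Igfbp5 and Igfbp2 are tail-to-tail neighbours on chromosome 1, with 3′ ends 5458 bp apart, and had folds of opposite sign. Igfbp5 (72857932 to 72874884, minus strand), a binding protein stored in bone matrix, had 94.3 FPKM (76.8 to 112) in wheel running mice and 74.8 FPKM (61.0 to 88.5) in sedentary mice, a log2 fold of 0.33. It had the third smallest p of the set, 0.0017, and was not called at q = 0.125 in the authors' deposited table. Igfbp2 (72824503 to 72852474, plus strand), whose protein carries a cell-binding RGD sequence, had 2.23 FPKM (1.14 to 3.32) in wheel running mice and 3.51 FPKM (2.01 to 5.01) in sedentary mice, a log2 fold of -0.63. It was not called, with p = 0.0134 and q = 0.498 in the authors' deposited table, on about 110 and 170 fragments. The ratio of Igfbp5 to Igfbp2 FPKM was 42.3 in wheel running and 21.3 in sedentary mice, a difference that was not tested. Including Igfbp3 and Igfbp6, 4 of the 9 tested genes had an unadjusted p under 0.05, where 5.65% of all tested genes did.

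Igfbp4 and Igfbp7 were the most abundant of the 10 genes and were not called. Igfbp4 (chromosome 11, 99041244 to 99054392, plus strand), generally an inhibitor of IGF action and a target of the protease PAPP-A, had 291 FPKM (210 to 373) in wheel running mice and 279 FPKM (199.7 to 359) in sedentary mice, above 98.4% and 98.3% of tested genes. Its log2 fold was 0.06, with p = 0.703 in the authors' deposited table. Igfbp7 (chromosome 5, 77349240 to 77408041, minus strand), which binds IGFs weakly and is abundant in vessel walls, had 133 FPKM (97.1 to 168) in wheel running mice and 116 FPKM (84.4 to 148) in sedentary mice. Its log2 fold was 0.19, with p = 0.233 in the authors' deposited table. Its 3′ end overlaps that of Polr2b on the other strand by 85 bp. Polr2b, at 28.2 FPKM in wheel running and 28.6 FPKM in sedentary mice, was not called.

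Igfals, the acid labile subunit made mainly by the liver, was close to undetected. It had 0.403 FPKM (0 to 1.23) in wheel running mice and 0.236 FPKM (0 to 0.653) in sedentary mice, on about 46 and 25 fragments, and the authors did not test it. The gene (chromosome 17, 24865997 to 24882010, plus strand) lies 601 bp from Nubp2 (31.0 FPKM in wheel running and 36.8 FPKM in sedentary mice) and 1547 bp from Hagh (106 and 96.8 FPKM). Of 7 liver markers, Ttr, Apob and Fgb were listed at 0 in both groups, and Alb, Ahsg and Apoa1 stood at 0.0488, 0.0325 and 0.031 FPKM in wheel running mice and were listed at 0 in sedentary mice. The remaining one, Serpina1a, which has close paralogs, was the only one tested. It had 1.52 FPKM in wheel running and 0.83 FPKM in sedentary mice, a log2 fold of 0.80, and was not called, with p = 0.0175 and q = 0.587 in the authors' deposited table. The 7 summed to 1.64 FPKM in wheel running and 0.83 FPKM in sedentary mice, and their part in the value of Igfals was not tested.

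**Figure D1:**
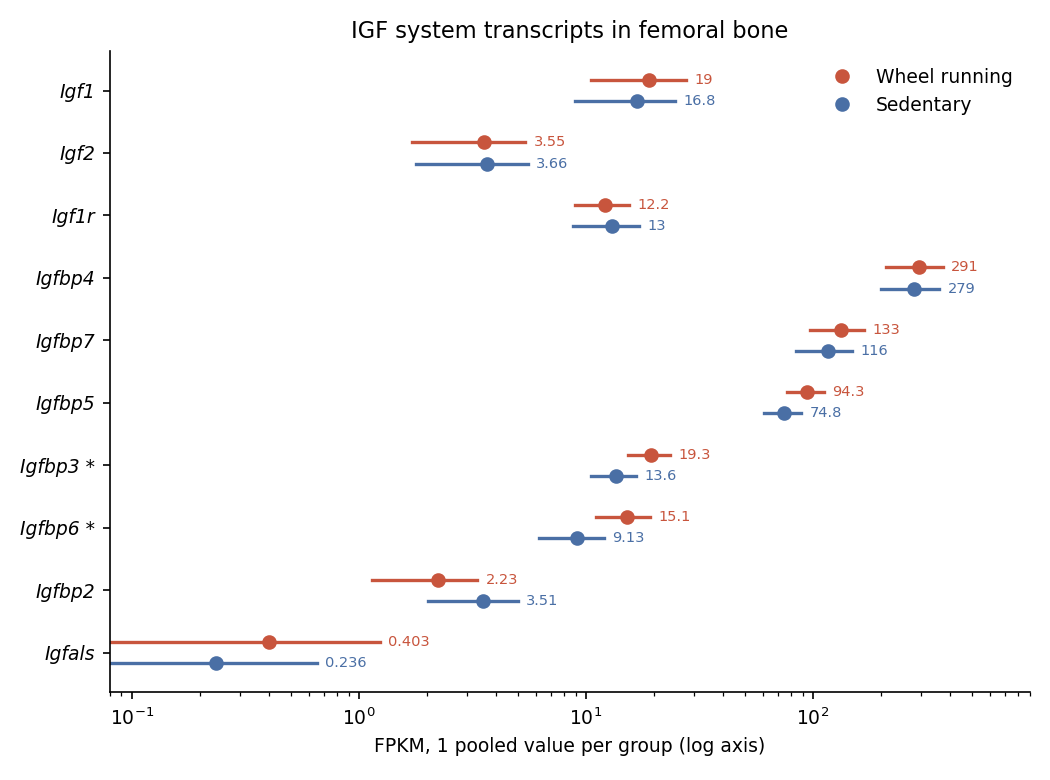
FPKM of the 10 genes on a log axis, wheel running (red) above sedentary (blue); points are the authors' pooled values and lines their intervals, and the lower bounds of Igfals (0) run off the axis. The asterisk marks the called genes, Igfbp3 (19.3 against 13.6 FPKM) and Igfbp6 (15.1 against 9.13 FPKM), whose lines still overlap between groups.

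The order of levels was alike in both groups at its ends and differed in the middle. Igfbp4 came first, above Igfbp7 without overlap of the intervals, and Igfbp7 and Igfbp5 followed with overlapping intervals. Below Igfbp5 the intervals were apart in either group. Then came 4 genes, in the order Igfbp3, Igf1, Igfbp6 and Igf1r in wheel running mice, and Igf1, Igfbp3, Igf1r and Igfbp6 in sedentary mice. Each called gene thus stood 1 place higher in the wheel running order, among neighbours that were not separated by their intervals. Igf2, Igfbp2 and Igfals came last, apart from the genes above them, and of these the intervals of Igfbp2 and Igfals were apart in sedentary mice and overlapped in wheel running mice.

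Summed over the 6 binding proteins, the FPKM was 555 in wheel running and 497 in sedentary mice, a ratio of 1.12 with no test. The called genes were a small part of this pool. Igfbp3 made up 3.48% of it in wheel running and 2.73% in sedentary mice, and Igfbp6 2.72% and 1.84%. Igfbp4 made up 52.5% in wheel running and 56.3% in sedentary mice. Of the summed difference of 58.6 FPKM, Igfbp5 contributed 33.4%, Igfbp7 28.0% and Igfbp4 20.8%, none of them called, while Igfbp6 contributed 10.2% and Igfbp3 9.84%. Both ligands together had 22.6 FPKM in wheel running and 20.4 FPKM in sedentary mice. Binding protein transcripts therefore stood at 24.6 times the ligand transcripts in wheel running mice and 24.3 times in sedentary mice, per transcript length.

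**Figure D2:**
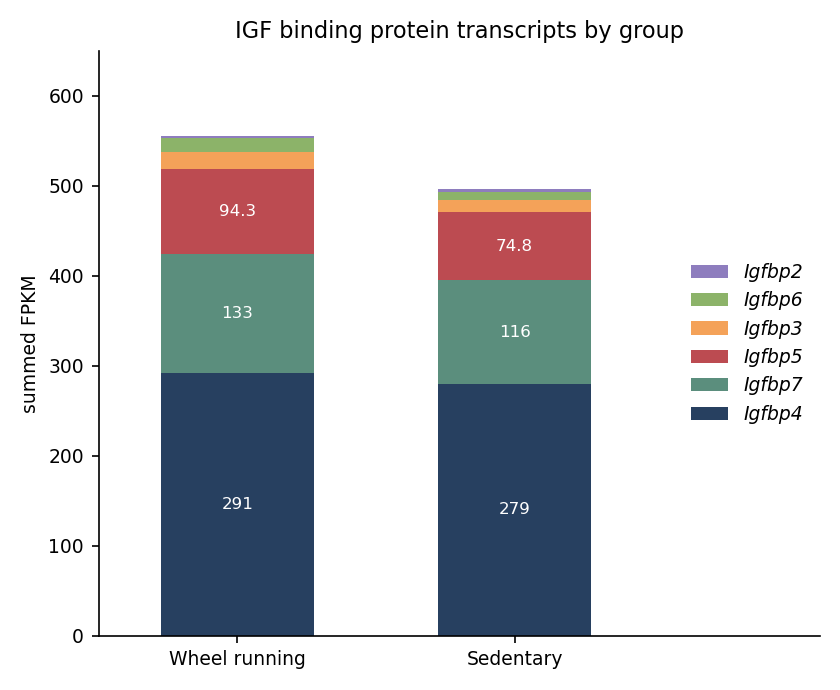
Summed FPKM of the 6 binding proteins, wheel running at left and sedentary at right, from the authors' pooled values with no error bars because no spread between mice is known. Igfbp4 (291 and 279 FPKM) is the largest layer, and the layers of the called genes Igfbp3 and Igfbp6 are thin.

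Around the 10 genes, 69 further genes of the pathway were listed in 6 groups, of which 56 were tested, 0 were called higher and 1 lower (0.445% and 0.497% of all tested genes). At q under 0.05 that 1 gene was Cish. Related receptors were not called. Igf2r, which clears IGF-2, had 10.1 FPKM in wheel running and 9.57 FPKM in sedentary mice, and Insr, the insulin receptor, 12.6 and 11.4 FPKM. Igfbp1, the tail-to-tail neighbour of Igfbp3 at 3540 bp, was listed at 0 in both groups. Among proteases of binding proteins and their inhibitors, 6 of 10 were tested and none was called. Their median log2 fold was 0.23, with 5 positive and 1 negative. The negative one was Plau, at 6.92 FPKM in wheel running and 7.22 FPKM in sedentary mice. Pappa, the metalloprotease that cleaves IGFBP-4 and IGFBP-5, had 6.35 FPKM in wheel running and 4.91 FPKM in sedentary mice, with q = 0.104 in the authors' deposited table. Stc2, an inhibitor of PAPP-A, had 3.60 and 2.61 FPKM, and the lysosomal protease gene Ctsd 353 and 309 FPKM, in wheel running and sedentary mice. Htra1, a serine protease, had 24.5 FPKM in wheel running and 20.4 FPKM in sedentary mice, with intervals that reached 0 in both groups.

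Downstream of the receptor, none of 29 tested genes of the adaptor and PI3K, AKT and mTOR branch was called. Among all tested genes 0.941% were called, so a list of this length may well hold none. Of the 29, 17 had a positive and 12 a negative log2 fold, with a median of 0.02. The kinase gene Akt1 had 72.7 FPKM in wheel running and 77.8 FPKM in sedentary mice, and the adaptor gene Grb2 57.1 and 60.4 FPKM. The adaptor gene Shc1 had 54.2 FPKM in wheel running and 53.2 FPKM in sedentary mice.

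Upstream, in the growth hormone pathway that drives Igf1 transcription through STAT5, 1 of 8 genes was called, where 0.941% of all tested genes were. The 8 genes had a median log2 fold of 0.0074, with 4 positive and 4 negative. Cish, a feedback inhibitor induced by STAT5, fell to 1.96 FPKM in wheel running mice, against 7.80 FPKM in sedentary mice, a log2 fold of -1.94 and q = 0.00718 in the authors' deposited table. Socs3, an inhibitor of cytokine signalling, had 11.4 FPKM in wheel running and 15.7 FPKM in sedentary mice, with q = 0.0517 in the authors' deposited table. Socs2, another STAT5 target, had 8.70 and 8.35 FPKM, and Ghr, the growth hormone receptor, 16.9 and 12.5 FPKM, neither called. Jak2, Stat5a, Stat5b and Socs1 were not called either, with log2 folds of 0.04, 0.07, -0.03 and -0.30. None of 5 genes of parathyroid hormone signalling and bone regulation of Igf1 was called, with Pth1r at 49.0 FPKM in wheel running and 43.0 FPKM in sedentary mice. None of 6 tested imprinted and IGF2 mRNA binding genes was called. With 0.941% of all tested genes called, lists this short may well hold none. H19, the imprinted neighbour of Igf2, had 10.4 FPKM in wheel running and 9.92 FPKM in sedentary mice, and Ins2, Dlk1, Meg3 and Igf2bp1 were listed at 0 in both.

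**Figure D3:**
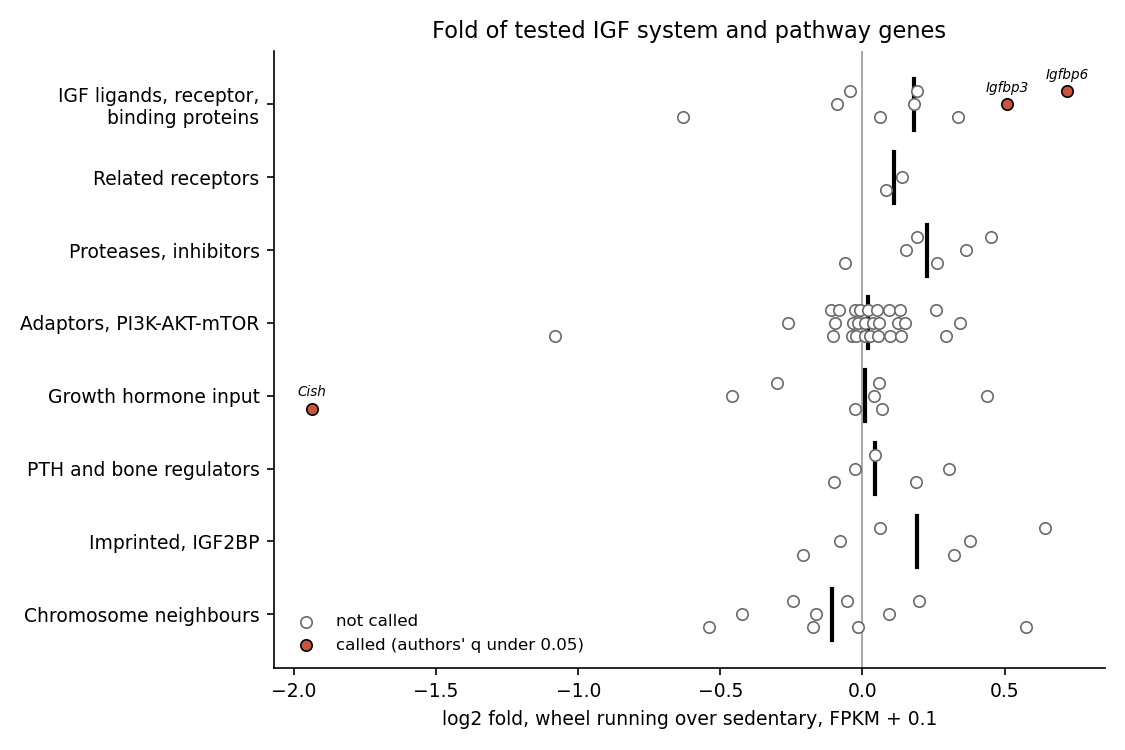
Log2 folds (wheel running over sedentary, FPKM + 0.1) of the tested genes, 1 row per list, with a vertical bar at each list's median and filled points for called genes. Igfbp3 and Igfbp6 are the filled points to the right in the top row and Cish, at -1.94, the filled point to the left.

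Some markers of fibroblasts, fat, muscle, marrow stroma and osteocytes were also called higher in wheel running mice. Igfbp6 is expressed by fibroblasts, and of 12 tested fibroblast, tendon and adventitia markers 4 were called higher and 0 lower, where 0.445% and 0.497% of all tested genes were. The log2 folds of the called markers were 1.11 for Tnxb, 0.87 for Thbs4, 0.83 for Clec3b and 0.50 for Fmod, beside 0.72 for Igfbp6 and 0.51 for Igfbp3. Tnxb was low, at 2.55 FPKM in wheel running and 1.13 FPKM in sedentary mice. Across all 12 markers the median log2 fold was 0.28, with 10 positive and 2 negative. The list summed to 726 FPKM in wheel running and 624 FPKM in sedentary mice, a ratio of 1.16, and most of that sum was Dcn (431 and 371 FPKM) and Lum (149 and 131 FPKM), neither called. Pi16, a marker of adventitial fibroblasts, stood at 24.0 FPKM in wheel running and 29.4 FPKM in sedentary mice, a negative fold, and was not called. Dpp4, the other negative marker, had a log2 fold of -0.26 and the tendon marker Tnmd 0.02, neither called. Of 8 adipocyte markers 3 were called higher (505 and 351 FPKM summed), of 10 skeletal muscle markers 3 (2088 and 1720 FPKM) and of 7 marrow stroma markers 1, Lepr (1288 and 1113 FPKM), in wheel running and sedentary mice. The called adipocyte markers were Adipoq, Fabp4 and Cfd, and the called muscle markers Myh1, Myh2 and Tcap. All markers of these 3 lists had a positive log2 fold, with medians of 0.56 for adipocytes, 0.28 for muscle and 0.21 for stroma. Markers of endothelial cells, which express Igfbp3, Igfbp4 and Igfbp7, summed to 226 FPKM in wheel running and 215 FPKM in sedentary mice. None of the 10 was called, and 7 had a positive and 3 a negative log2 fold, with a median of 0.15. All 7 smooth muscle and pericyte markers had a positive log2 fold, with a median of 0.30 and none called, and summed to 121 FPKM in wheel running and 101 FPKM in sedentary mice. All 8 neutrophil markers had a negative log2 fold, with a median of -0.15 and none called. Of 7 B and plasma cell markers 6 had a negative log2 fold, with a median of -0.16 and a sum of 445 FPKM in wheel running and 546 FPKM in sedentary mice, and 1, Jchain, was called lower with a log2 fold of -0.70. Osteoblast markers summed to 7436 FPKM in wheel running and 7025 FPKM in sedentary mice, with none of 9 called. All 9 had a positive log2 fold, with a median of 0.18. Of 8 tested osteocyte markers 7 had a positive log2 fold, with a median of 0.26, and 2 were called higher and 1 lower. Those called higher were Sost and Mepe, each with a log2 fold of 0.48. Fgf23 was called lower with a log2 fold of -3.16, at 0.288 FPKM in wheel running and 3.36 FPKM in sedentary mice. The osteocyte marker Pdpn was listed at 0 in both groups. Of 7 osteoclast markers 6 had a positive log2 fold, with a median of 0.18 and none called. No chondrocyte, erythroid, monocyte and macrophage or Schwann cell marker was called, with median log2 folds of 0.06, 0.04, 0.10 and 0.11 in that order. The part of any of these cell types in the rise of Igfbp3 and Igfbp6 was not tested.

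**Figure D4:**
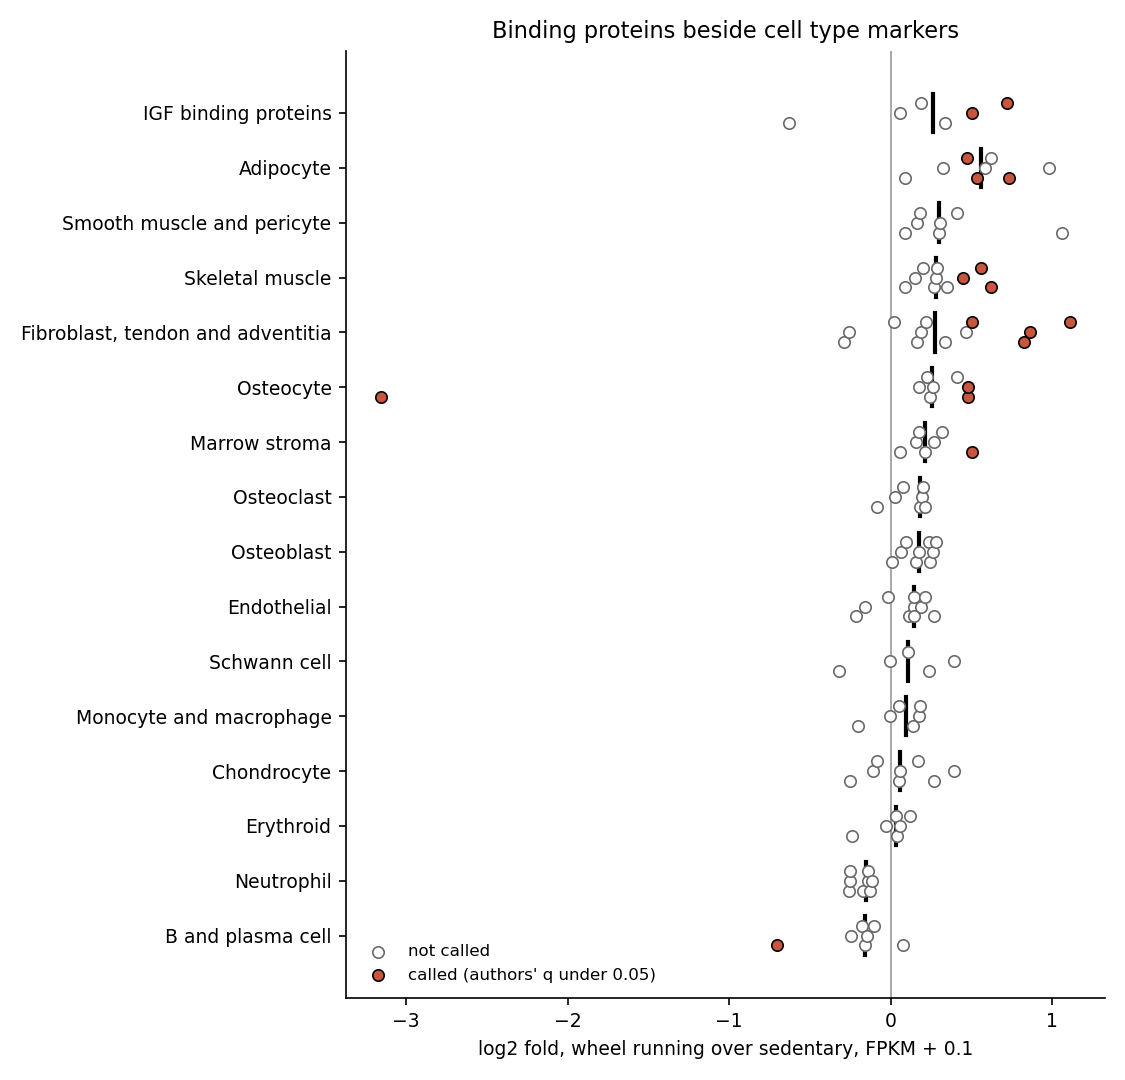
Log2 folds (wheel running over sedentary, FPKM + 0.1) of the 6 binding proteins in the top row and of tested cell type markers below it, ordered by the list medians (vertical bars), with filled points for called genes. The adipocyte median is 0.56 and the neutrophil median -0.15, beside 0.26 for the binding proteins.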

How the data were processed

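Per the labels' protocols, TRIzol RNA from 6 femoral bone samples was made into libraries with the NEBNext Ultra Directional kit. Cufflinks 2.2.1, HISAT2 2.2.1, Trimmomatic 0.39, SAMtools 1.10 and the build GRCm38 appear in the submitters' processing notes without settings, and no source says if fragments were counted by strand. The authors deposited 1 pooled FPKM per group with interval bounds, a log2 fold, a test score (test statistic), a p-value and a q-value per gene, per the file headers. The level of the interval is not stated. The tables have 0 columns for single mice, which leaves no test across mice, and p-values and q-values are the authors'. The smallest p the deposited table holds is 5e-05, at which 108 genes tie, so Igfbp3 and Igfbp6 cannot be ranked by p.

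Python 3.11.15 with pandas 2.3.3 computed log2 folds (pseudocount 0.1), sums, shares and list counts, and the adjustment and list code was tested on simulated data. Depth was estimated from the FPKM steps that single fragments make in single-exon genes longer than 1500 bp, taking a group value as the mean over its libraries; fragment numbers per gene use the length of the principal GENCODE transcript and are approximate, and they cover counting only. Coordinates come from GENCODE vM21 (GRCm38), in which 55138 of 55484 Ensembl IDs were found. Promoter sequences are RefSeq's. The members and lists were chosen with earlier results of these data known. All 10 members are named, with called pathway genes and up to 4 of the most expressed others per list; all growth hormone genes and chromosome neighbours could be named. Pappa, Stc2, Pi16 and genes listed at 0 were named after their values were seen. With 1 value per group, no likeness of pattern to other genes could be measured. Another q threshold, fold minimum, interval rule, pseudocount and scaling were tried.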

Additional observations from a re-analysis of the deposited data

How the results depend on the processing

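No paired analysis was possible because values of single mice were pooled into group values. Leaving out each replicate was likewise not run, so whether 1 mouse decides a value is unknown. The number of called genes, 2, was also 2 with q under 0.01, with q under 0.1, with q recomputed over tested genes of at least 1 FPKM, with an absolute log2 fold of at least 0.5 and, chosen after seeing the data, with a test statistic of 1.96 or more in size. All of these reuse the authors' p-values. The fold and test statistic settings only filtered genes already called, so they could not have added a gene. Counting only calls with separate intervals left 0. Among all 15508 tested genes 146 were called, and 69 of these calls (0.445% of tested genes) had separate intervals. The log2 folds of the 10 genes kept their sign under all 50 combinations with another pseudocount or scaling. This was nearly fixed in advance, because a pseudocount added to both groups cannot change a sign and the rescalings were small. The folds ranged from 0.48 to 0.55 for Igfbp3 and from 0.67 to 0.76 for Igfbp6. The fold of Igf2 ran from -0.04 to -0.00059, so its sign carries little. Rescaling shifted all folds by at most 0.04. The ratio of summed binding proteins was 1.15 with the same total FPKM, 1.11 without Igfbp7 and 1.21 without Igfbp4. Depth limits Igfals and Igfbp2 most.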
